A study of Mus musculus with 92 samples.

Results

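The Ceacam genes encode carcinoembryonic antigen-related cell adhesion molecules, a family of immunoglobulin-domain proteins at or released from the cell surface. The genes described here are Ceacam1, Ceacam10, Ceacam18 and Ceacam20, found by their symbols in the gene name column, and they are 4 of the 54532 genes in each of the 4 tables of mouse RNA-seq read counts. Ceacam10 was chosen by its measured lower level in crypts after deletion of Eif4g2. The levels that led to the choice of the other 3 genes are not recorded, so in both comparisons of homozygous with heterozygous crypts all 4 genes are described and none is tested.

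The study deleted Eif4g2, the gene of a translation initiation factor also called DAP5, in mouse intestine, in small intestinal organoids and in fetal intestinal spheroids, and treated other organoids with A-485, an inhibitor of the acetyltransferases p300 and CBP. All 92 libraries, in 21 groups, carried a tamoxifen-dependent Cre recombinase (CreER), and no group lacked it. Rosa26 CreER mice, in which the recombinase is expressed in nearly all cell types, were sampled on day 9 after the first of 4 daily injections of 100 mg/kg tamoxifen. They gave crypts of 4 Eif4g2 flox/flox (homozygous) and 5 flox/+ (heterozygous) mice, and villi of 5 and 5. Vil1 CreER mice, in which it is expressed in the intestinal epithelium, were sampled at month 3 after the same injections and gave crypts of 3 flox/flox and 4 flox/+ mice and villi of 6 and 4. Every heterozygous mouse thus also received tamoxifen and lost 1 copy, and the age of the mice is not given in the labels. The first organoid set held 3 Rosa26 CreER flox/flox lines, each grown with DMSO and with 0.5 µM 4-hydroxytamoxifen (4-OHT) for 24 h and collected on day 6. The second set, all treated with 4-OHT in the same way, held 4 flox/flox, 4 flox/+ and 4 Eif4g2 +/+ cultures, the last named CreER only and lettered A to D, without a statement of whether they came from separate mice. Fetal spheroids were 6 flox/flox and 5 flox/+ Rosa26 CreER lines, each with DMSO and with 0.5 µM 4-OHT for 24 h and collected on day 6. The labels of the first and second organoid sets and of the spheroids name the medium ENR. Spheroid names share number stems, so some lines may have a common source. The A-485 organoids were 4 lines, of which line 1 was Eif4g2 +/+ and lines 2 to 4 were flox/flox without 4-OHT, each given DMSO or A-485 at 3, 5 or 10 µM for 4 days.

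Ceacam1 is an adhesion receptor that carries inhibitory tyrosine motifs in its cytoplasmic tail, recruits the phosphatases Ptpn6 and Ptpn11, and serves mouse hepatitis virus as its receptor. Ceacam20 is a membrane protein of enterocyte microvilli, is phosphorylated by Src-type kinases and is dephosphorylated by Ptprh, a phosphatase of the same membrane. Ceacam10 lacks the transmembrane part and is a secreted-type member of the family. In the intestine, crypts hold stem cells, Paneth cells and dividing progenitors, and villi are covered mostly by absorptive enterocytes.

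Each of the 4 genes lies on chromosome 7 (GRCm38): Ceacam20 (ENSMUSG00000070777) at chr7:19965412-19991104 and Ceacam10 (ENSMUSG00000054169) at chr7:24777206-24784657, both on the plus strand. Ceacam1 (ENSMUSG00000074272) lies at chr7:25461707-25477603 on the minus strand and Ceacam18 (ENSMUSG00000030472) at chr7:43634707-43649295 on the plus strand. The start regions of Ceacam1 and Ceacam10 are shown because they are near copies of each other, while the levels of both genes ran in opposite directions between crypts and villi. Over 280 aligned columns without a gap, 261 bases were identical (93.2%) and 19 differed, and the differing bases are in capitals. The Ceacam1 stretch is read on the minus strand from the window chr7:25477576-25477875, the Ceacam10 stretch on the plus strand from chr7:24776917-24777216, both 5′ to 3′ (RefSeq, GRCm38.p6).
Ceacam1: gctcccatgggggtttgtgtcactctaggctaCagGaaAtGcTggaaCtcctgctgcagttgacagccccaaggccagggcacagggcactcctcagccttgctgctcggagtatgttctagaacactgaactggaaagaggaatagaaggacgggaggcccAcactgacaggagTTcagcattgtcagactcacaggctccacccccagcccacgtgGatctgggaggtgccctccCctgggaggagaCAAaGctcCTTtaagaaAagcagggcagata
Ceacam10: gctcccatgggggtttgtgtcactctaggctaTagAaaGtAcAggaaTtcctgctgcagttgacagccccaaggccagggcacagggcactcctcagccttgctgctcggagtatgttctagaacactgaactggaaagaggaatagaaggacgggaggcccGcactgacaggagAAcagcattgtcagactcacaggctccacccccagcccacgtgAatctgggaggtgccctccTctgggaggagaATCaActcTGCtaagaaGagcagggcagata
In the same alignment the Ceacam1 window and that of its neighbour Ceacam2 shared 87.6% over 129 columns. The windows of the other members, Ceacam18 (chr7:43634489-43634788) and Ceacam20 (chr7:19965162-19965461), both on the plus strand, are also shown. Both genes had the same direction of change in most comparisons, as had other pairs of members. Between homozygous and heterozygous mice they had opposite directions in Rosa26 crypts (0.49 and -0.60), Vil1 crypts (0.34 and -1.94) and Vil1 villi (0.35 and -0.15, log2). Capitals mark matches to the motifs searched.
Ceacam18: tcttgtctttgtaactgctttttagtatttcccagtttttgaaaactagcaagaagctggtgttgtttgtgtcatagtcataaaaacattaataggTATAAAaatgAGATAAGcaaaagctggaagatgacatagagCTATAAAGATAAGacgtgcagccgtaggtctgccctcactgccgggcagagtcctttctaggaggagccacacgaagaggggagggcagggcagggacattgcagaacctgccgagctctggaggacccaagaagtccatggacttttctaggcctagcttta
Ceacam20: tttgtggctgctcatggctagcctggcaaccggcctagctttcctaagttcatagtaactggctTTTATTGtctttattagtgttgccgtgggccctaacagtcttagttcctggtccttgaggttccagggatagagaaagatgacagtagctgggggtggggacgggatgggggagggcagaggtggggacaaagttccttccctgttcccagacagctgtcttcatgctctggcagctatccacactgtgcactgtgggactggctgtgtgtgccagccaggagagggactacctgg
The 6 motifs were searched on both strands in the 300 bases from 250 before to 50 after each start. They were TTTATNG for the caudal homeobox factors (CDX), AGATAAG for the factors of the Gata family, TATAAA for the box that bears these letters, ATCAAAG for the TCF factors, CAAAGTCCA for HNF4, and GAAA with a second GAAA after any 2 bases for the interferon regulatory factors. The Ceacam18 window held 2 matches to AGATAAG, 2 to TATAAA and 1 to the CDX motif on the opposite strand, with the 3 motifs overlapping in the third run of capitals. The Ceacam20 window held 1 CDX match. The Ceacam1 and Ceacam10 windows held none of the 6. Among 32851 promoter windows of the same length, 10.91% held the CDX motif, 3.04% AGATAAG, 13.62% TATAAA, 3.73% ATCAAAG, 0.47% CAAAGTCCA and 3.44% the interferon motif.

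By shared sequence, read assignment was most uncertain for Ceacam1. Of the 50-base stretches of its transcripts, 29.6% also occur in transcripts of Ceacam2, against 3.00% of those of Ceacam10, 1.54% of Ceacam20 and 0 of Ceacam18 that occur in any other gene. All 46 shared stretches of Ceacam10 occur in Ceacam1, whose mean level was higher in every group. Whether Ceacam1 reads were counted for Ceacam10 in libraries with few Ceacam10 reads was not tested. Ceacam1 also overlaps 4732471J01Rik on the opposite strand, and whether counting used strand is not given in the sources used here. Levels below are CPM, read counts scaled by library size, after trimmed mean of M values (TMM) scaling over all 92 libraries, whose totals ran from 8652040 to 37611126 counts. Each fold change is on the log2 scale and carries its standard error (SE), from edgeR's quasi-likelihood test, and a gene was called at a Benjamini-Hochberg adjusted p under 0.05 over all genes tested. Labels name separate mice or lines in most groups, and p-values measure the spread between those. Unless a block is named, the fits held no term for a mouse or line that stood in 2 groups.

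The labels were checked by Eif4g2 itself, whose reads may partly come from outside the deleted exons. Its level was 117 ± 18.2 against 451 ± 8.92 CPM in Rosa26 crypts, 68.7 ± 7.69 against 425 ± 39.8 in Rosa26 villi, 299 ± 7.95 against 583 ± 32.6 in Vil1 crypts and 174 ± 22.3 against 436 ± 56.4 in Vil1 villi (SD, homozygous against heterozygous). In every deleted culture group the mean was below that of its control. Summed stem cell markers (6 genes) ran from 5791 to 9547 CPM in heterozygous Rosa26 crypts and from 41.5 to 117 in their villi, and summed enterocyte markers (8 genes) from 3046 to 5931 and from 69010.3 to 95032, so the tissue names matched their markers. In bulk RNA, fewer cells of a type and less RNA per cell cannot be told apart, which holds for every result below.

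In heterozygous mice the level of Ceacam10 was higher in crypts and the other 3 genes were higher in villi. The crypt libraries are also the controls of the comparison that chose Ceacam10, so its difference here is a description, with no test. Ceacam10 stood at 102, 82.9, 99.5, 73.4 and 86.8 CPM in the 5 Rosa26 crypt libraries and at 7.61, 6.06, 15.5, 7.17 and 6.28 in the 5 villus libraries. In Vil1 mice it stood at 85.4, 43.2, 69.7 and 69.9 CPM in crypts and at 12.97, 5.29, 7.80 and 4.25 in villi. Every crypt library was above every villus library of its driver. The log2 fold change of crypts over villi was 3.33 ± 0.25 in Rosa26 mice and 3.06 ± 0.37 in Vil1 mice, and Ceacam10 was higher in crypts in 5 of 5 and 4 of 4 mice.

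Ceacam18 had the steepest difference in the other direction. Its levels were 16.1, 12.5, 7.14, 15.5 and 5.77 CPM in Rosa26 crypts and 435, 527, 416, 468 and 479.8 in Rosa26 villi, and 6.05, 2.88, 5.45 and 6.78 in Vil1 crypts and 172, 147, 180.2 and 128 in Vil1 villi. The fold changes of crypts over villi were -5.42 ± 0.29 (adjusted p = 1.18e-08, edgeR) and -4.98 ± 0.26 (adjusted p = 3.13e-07, edgeR), ranks 47 of 14793 and 51 of 15757 genes from the most lower. Ceacam20, the microvillus protein, stood at 59.4, 27.8, 24.5, 56.1 and 23.7 CPM in Rosa26 crypts and 491, 613, 493, 534 and 507 in villi. In Vil1 mice its levels were 53.5, 26.6, 20.1 and 33.6 and 398, 311, 345 and 281. Its fold changes of crypts over villi were -3.86 ± 0.28 (adjusted p = 1.34e-07) and -3.41 ± 0.30 (adjusted p = 6.33e-06, edgeR), again without overlap. Ceacam1 differed least: it stood at 855, 581, 511, 622 and 490.1 CPM in Rosa26 crypts and 1274, 1734, 1699.9, 1833 and 1448 in villi, and at 823, 556, 620.5 and 619 and 1636, 1041, 1206 and 1141 in Vil1 mice. Its fold changes were -1.45 ± 0.17 (adjusted p = 5.98e-06) and -1.03 ± 0.19 (adjusted p = 0.000675, edgeR), and after TMM scaling no crypt library reached its driver's villus range. In CPM of the plain library total the Ceacam1 ranges overlapped in both drivers: crypts of replicate 1 held 909 (Rosa26) and 903 (Vil1), above the lowest villus libraries at 837 and 748.

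The 3 genes tested, Ceacam1, Ceacam18 and Ceacam20, were called in both drivers, where 77.1% (Rosa26) and 67.9% (Vil1) of all genes tested were called. Of the 13 genes of the list for microvillus and brush border structure, 12 were lower in crypts in each driver and none was higher, with a median of -2.62 and -2.68 on the log2 scale against 0.09 and 0.08 over all genes tested. Ptprh, which dephosphorylates Ceacam20, was also lower in crypts, with -3.21 ± 0.17 (adjusted p = 7.50e-09) and -2.42 ± 0.19 (adjusted p = 1.37e-06, edgeR). Of the 10 phosphatases and kinases known to act on Ceacam1 or Ceacam20, 2 were higher and 5 lower in crypts of Rosa26 mice, and 1 higher and 4 lower in Vil1 mice.

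Divided by gene length, which allows levels of different genes to be compared, the order below Ceacam1 differed between compartments of Rosa26 mice. In Rosa26 heterozygous crypts Ceacam1 stood at 105 ± 25.2 CPM per kb, Ceacam10 at 59.4 ± 7.87, Ceacam20 at 13.3 ± 6.19 and Ceacam18 at 5.79 ± 2.41 (mean ± SD, n = 5). In the villi of the same mice Ceacam1 stood at 275 ± 39.6, Ceacam18 at 236 ± 21.9, Ceacam20 at 183 ± 17.5 and Ceacam10 at 5.70 ± 2.64 (n = 5). Ceacam10 was second in crypts and last in villi of these Rosa26 mice. Levels per kb of Vil1 mice are not given here, so this order is not shown for that driver. Before division, mean Ceacam20 and Ceacam18 levels were 334 and 157 CPM in Vil1 heterozygous villi, and 528 and 465 in Rosa26 heterozygous villi.

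**Figure D1:**
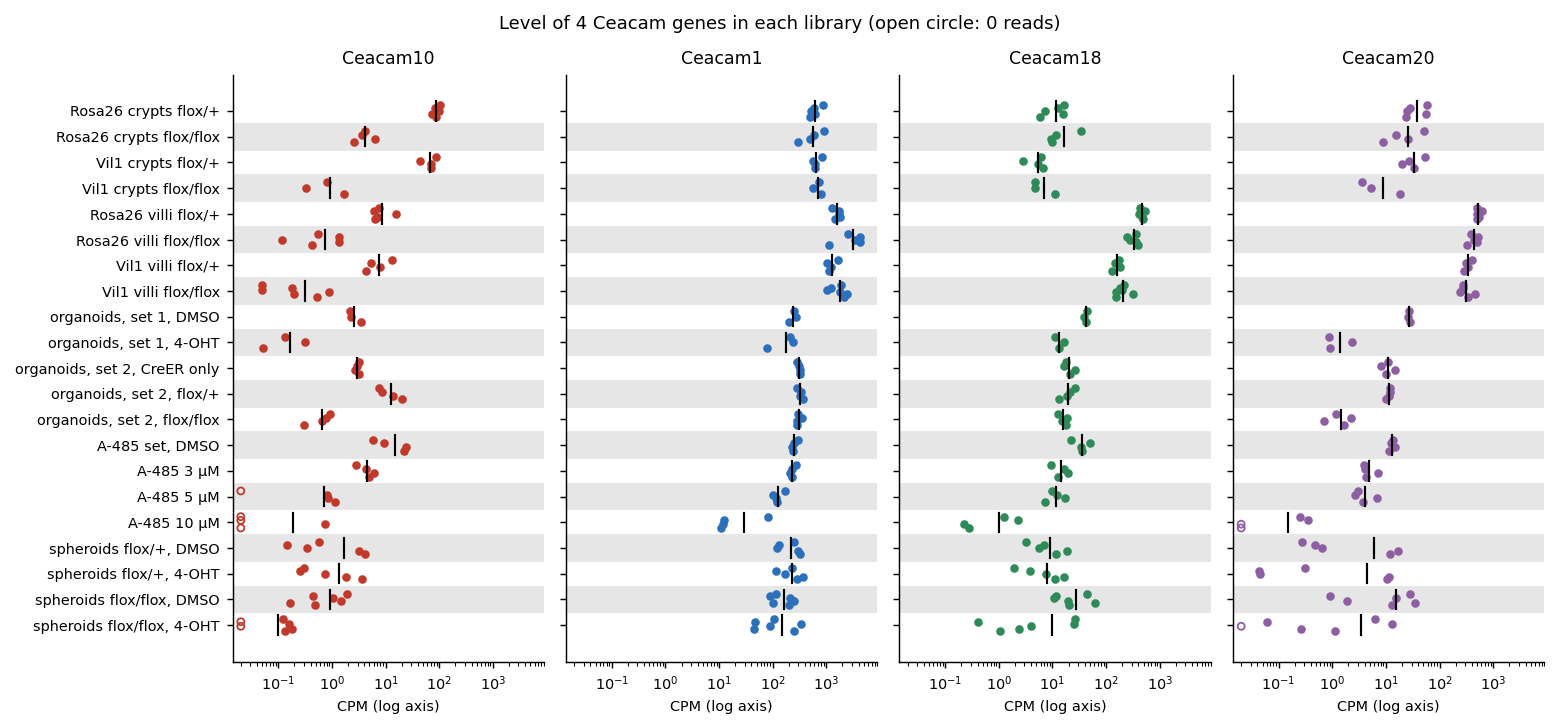
Level of each gene (CPM, log axis) in every library of the 21 groups, 1 point per library, with the group mean as a vertical bar and open circles for libraries with 0 reads. Ceacam10 was highest in the 2 heterozygous crypt groups (73.4 to 102 and 43.2 to 85.4 CPM), and Ceacam1, Ceacam18 and Ceacam20 were highest in the 4 villus groups.

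Over all 21 groups the order of levels followed this division. The 2 heterozygous crypt groups led for Ceacam10, overlapped each other and stood clear of the next group, the DMSO organoids of the A-485 set. For Ceacam1 and Ceacam20 the 4 villus groups led, each overlapping the next, and did not overlap the highest crypt group. For Ceacam18 the 4 villus groups also led, and heterozygous Rosa26 villi (416 to 527 CPM) did not overlap the homozygous Rosa26 villi in the next rank (246 to 388 CPM). The lowest group was 10 µM A-485 for Ceacam1, Ceacam18 and Ceacam20, and 4-OHT-treated flox/flox spheroids for Ceacam10.

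In homozygous crypts Ceacam10 was low in every mouse. Rosa26 homozygous crypts held 4.22, 3.65, 6.28 and 2.60 CPM against the 73.4 to 102 of heterozygous crypts, a fold change of -4.43 ± 0.27 (a 21.5-fold lower level). Vil1 homozygous crypts held 0.823, 0.334 and 1.66 CPM against 43.2 to 85.4, a fold change of -6.24 ± 0.56 (75.8-fold lower). The groups did not overlap in either driver, and the gene ranked 29 of 15846 and 53 of 16954 from the most lower. These values chose the gene and are a description.

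The other members differed less in the same crypts. Ceacam1 stood at 908, 589, 492 and 292 CPM in Rosa26 and 719, 559 and 809 in Vil1 homozygous crypts (-0.11 ± 0.31 and 0.06 ± 0.18). The Vil1 values lay within the heterozygous range, and the Rosa26 values spread past theirs (490.1 to 855 CPM) on both sides. Ceacam18 stood at 33.9, 11.5, 9.51 and 9.63 and 4.79, 4.74 and 11.0024 CPM, with fold changes of 0.49 ± 0.47 and 0.34 ± 0.40. Both genes overlapped their controls in both drivers. Ceacam20 stood at 51.9, 15.3, 25.7 and 8.88 CPM in Rosa26 homozygous crypts (-0.60 ± 0.52) and at 3.58, 5.22 and 18.03 in Vil1 homozygous crypts (-1.94 ± 0.67). The Vil1 values lay below all 4 heterozygous values (20.1 to 53.5) and the Rosa26 values overlapped.

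Several other measures moved with genotype in these crypts. The summed stem cell markers ran from 467 to 1602 CPM in Rosa26 homozygous crypts against 5791 to 9547, and from 775 to 1184 against 6987 to 7649 in Vil1 crypts. The summed Paneth markers (8 genes, all with reads) ran from 2968 to 12912 against 20869 to 27822 and from 458 to 1169 against 3946 to 8673. Summed goblet, enteroendocrine and tuft markers were also lower without overlap in both drivers. For goblet markers the ranges were 2740 to 6743 against 7455 to 13038 in Rosa26 and 1911 to 2620 against 4942 to 7545 in Vil1 crypts. The summed microvillus genes ran from 2532 to 6432 CPM against 3057 to 4888 in Rosa26 crypts, and from 1815 to 2639 against 2792 to 4306 in Vil1 crypts, where they did not overlap, like Ceacam20. Enterocyte markers overlapped in both, at 3709 to 12934 against 3046 to 5931 and 896 to 2449 against 2303 to 5486. In Rosa26 crypts leukocyte markers had a median of 579.5 against 146 CPM, and stroma and muscle markers 530.4 against 139, both with overlapping ranges. The mitochondrial share of reads averaged 18.9% against 8.55% and 35.7% against 23.3%. Y-linked transcripts were present in all 5 Rosa26 heterozygous mice and in 1 of 4 homozygous crypt libraries. The part of these in the crypt levels of Ceacam10 and Ceacam20 was not tested.

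Villi were separate libraries, mostly from the same mice, and are not among the values known to have chosen Ceacam10. Ceacam10 fell there too: Rosa26 homozygous villi held 0.540, 1.34, 0.116, 1.33 and 0.420 CPM against 7.61, 6.06, 15.5, 7.17 and 6.28, and Vil1 homozygous villi held 0.05003 (lowest), 0.186 (median) and 0.893 CPM (highest), against 12.97, 5.29, 7.80 and 4.25. Homozygous and heterozygous libraries did not overlap in either driver. The fold changes were -3.59 ± 0.52 (adjusted p = 0.0006, edgeR) and -4.55 ± 0.58 (adjusted p = 5.68e-05, edgeR). Counts in the homozygous villi were small, from 2 to 23 reads in Rosa26 and from 1 to 20 in Vil1 libraries. The fold changes kept direction and call without any 1 library, from -3.88 to -3.22 and from -5.15 to -4.18. Markers of secretory cells were also low there: the summed Paneth markers ran from 21.5 to 132 CPM against 141 to 225 in Rosa26 villi and from 29.8 to 115 against 151 to 398 in Vil1 villi, without overlap in either. Goblet markers ran from 2938 to 14658 against 9422 to 21951, with overlap, and from 1796 to 3165 against 10736 to 16669.8, without. Tuft markers were lower without overlap in both drivers, and enteroendocrine markers were so in Vil1 villi and overlapped in Rosa26 villi. Stem cell markers overlapped in both drivers. The part of these markers in the villus levels of Ceacam10 was not tested.

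Ceacam1 was the member called higher in a comparison of homozygous with heterozygous mice. Rosa26 homozygous villi held 2515, 4289.6, 3499.9, 4305 and 1128 CPM against 1274, 1734, 1699.9, 1833 and 1448, so 4 of 5 homozygous libraries were above all heterozygous ones and 1, at 1128 CPM, was below them. The fold change was 0.90 ± 0.30 (adjusted p = 0.0378, edgeR), and the call was lost in 10 of 17 alternatives. Among these were each of the 5 heterozygous libraries and homozygous replicates 2, 3 and 4 left out in turn (adjusted p from 0.0535 to 0.0829) and a term for Y-linked transcripts (1.01, adjusted p = 0.0899, edgeR), which were present in 2 of 5 homozygous and 5 of 5 heterozygous villus libraries. In Vil1 villi it stood at 1040.4 (lowest), 1856 (median) and 2470.1 CPM (highest) against 1636, 1041, 1206 and 1141, overlapping, with 0.45 ± 0.23 (adjusted p = 0.135, edgeR). Summed markers of all epithelial cells ran from 19368 to 25149 CPM against 17004 to 19231 in Rosa26 villi. In Vil1 villi they ran from 15431 to 18642 against 12253 to 14385, without overlap in either. The other Ceacam genes, Ceacam2 among them, summed to 20.3 to 96.0 CPM against 25.5 to 47.8 in Rosa26 villi (median 92.3 against 31.6). The part of these in the level of Ceacam1 was not tested.

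Ceacam18 fell slightly in Rosa26 villi, from 435, 527, 416, 468 and 479.8 CPM in heterozygous to 357, 246, 283, 354 and 388 in homozygous mice without overlap (-0.58 ± 0.14, adjusted p = 0.0082, edgeR). With all 4 Rosa26 tissue groups in the fit its adjusted p was 0.224. In Vil1 villi it stood at 155 (lowest), 188 (median) and 321 CPM (highest) against 172, 147, 180.2 and 128 CPM, with 0.35 ± 0.20 (adjusted p = 0.184, edgeR). Ceacam20 stood at 386, 526, 445, 509 and 328 CPM in Rosa26 homozygous villi (-0.34 ± 0.13, adjusted p = 0.0628, edgeR) and at 238 (lowest), 274 (median) and 459 CPM (highest) in Vil1 homozygous villi (-0.15 ± 0.18, adjusted p = 0.5258, edgeR), overlapping the heterozygous values in both. Counts of called members were 3 of 4 in Rosa26 villi, where 33.2% of all genes were called, and 1 of 4 in Vil1 villi, where 42.5% were. The microvillus list had 6 and 5 of its 13 genes lower and none higher, with medians of -0.32 and -0.31 against -0.01 and 0.05 over all genes tested.

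**Figure D2:**
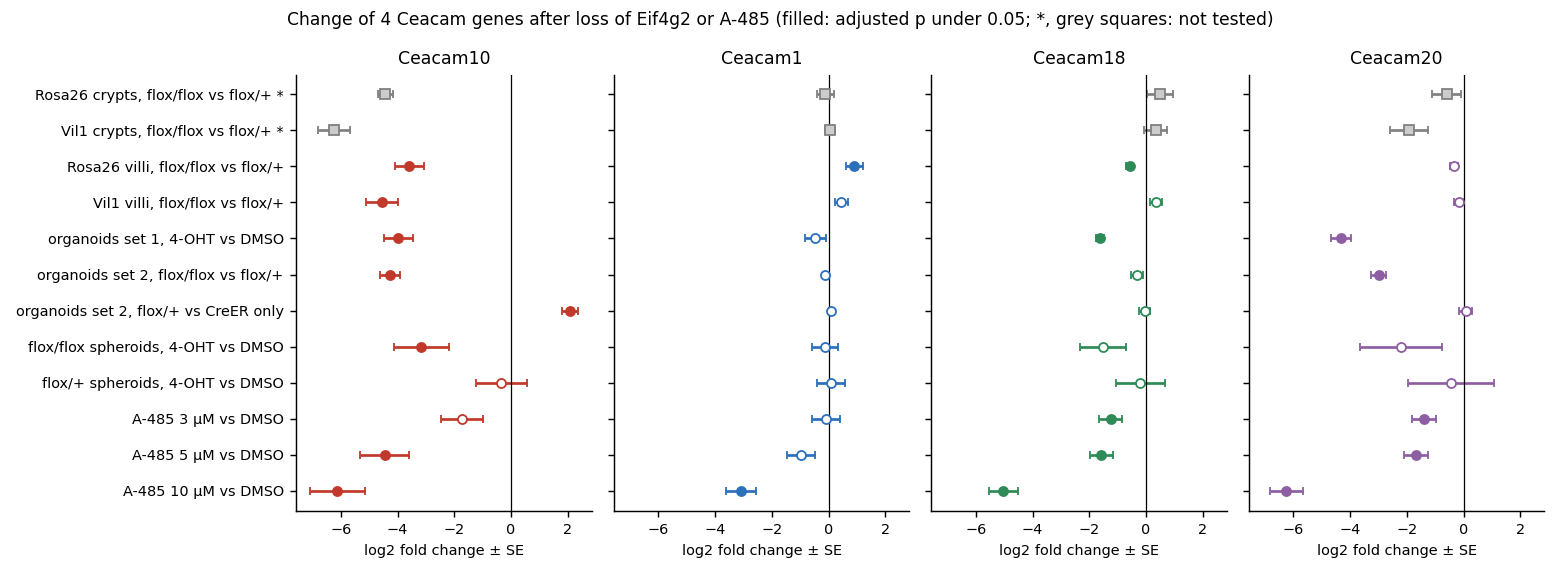
Log2 fold change (x axis) with its SE of each gene in 12 comparisons, with filled circles for an adjusted p under 0.05, open circles for the rest, and grey squares for the 2 crypt comparisons, which are described without a test. Ceacam10 was lower in each plotted comparison of flox/flox with flox/+ and of 4-OHT with DMSO in flox/flox cultures, from -6.24 in Vil1 crypts to -3.16 in spheroids, and higher by 2.08 in flox/+ than in CreER-only organoids. The spheroid points come from the fit of all spheroid groups, and Ceacam10 did not pass the low-count filter with the flox/flox groups alone.

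In the first organoid set 3 of the 4 members fell with 4-OHT in the flox/flox lines, where 35.4% of all genes were called and 17.2% were lower. No flox/+ or +/+ culture was treated in this set, so deletion and 4-OHT itself cannot be told apart here. Ceacam20 stood at 27.5, 25.5 and 28.5 CPM with DMSO and at 0.867, 2.30 and 0.923 with 4-OHT, a fold change of -4.33 ± 0.35 (adjusted p = 0.000414, edgeR). Ceacam10 stood at 2.18, 2.28 and 3.45 and 0.131, 0.320 and 0.0527 CPM (-3.97 ± 0.51, adjusted p = 0.00156, edgeR), with only 2 to 11 reads per treated library. Ceacam18 stood at 43.8, 39.1 and 41.3 and 11.2, 16.2 and 13.1 CPM (-1.62 ± 0.14, adjusted p = 0.000464, edgeR). Each of the 3 genes fell in 3 of 3 lines without overlap. Ceacam1 stood at 254, 275 and 201 and 211, 243 and 77.9 CPM, lower in 3 of 3 lines but overlapping between treatments (-0.47 ± 0.37, adjusted p = 0.371, edgeR). The summed enterocyte markers ran from 9509.7 to 12956 CPM with DMSO and from 4300.2 to 6399 with 4-OHT, and 10 of the 13 microvillus genes were lower and 1 higher. Ptprh fell too (-0.36 ± 0.11, adjusted p = 0.0371, edgeR). The summed Paneth markers ran from 1607 to 1931 CPM with DMSO and from 182 to 396 with 4-OHT. Stem cell, goblet, enteroendocrine and tuft sums were also lower with 4-OHT without overlap. The part of these markers in the fall of the 3 genes was not tested.

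The second organoid set gave the same 2 members as its calls against either control. Ceacam20 stood at 1.19, 2.25, 0.707 and 1.68 CPM in flox/flox, 12.1, 12.1, 11.4 and 10.2 in flox/+ and 10.9, 8.13, 14.5 and 10.2 in CreER-only cultures. No flox/flox value reached either control, and the 2 controls overlapped. Its fold changes were -2.99 ± 0.26 against flox/+ (adjusted p = 7.39e-07, edgeR) and -2.92 ± 0.26 against CreER only (adjusted p = 9.48e-07, edgeR), 2 comparisons that share the flox/flox libraries. In the same cultures Ptprh differed from flox/+ by 0.20 ± 0.20 (adjusted p = 0.449, edgeR), and the summed enterocyte markers overlapped, at 3561 to 6359 CPM in flox/flox against 3771 to 7619 CPM in flox/+ cultures. Of the microvillus genes 5 of 13 were lower than in flox/+ and none higher.

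Ceacam10 separated all 3 groups of this set. The CreER-only cultures are not known to come from separate mice. Genotype and line thus cannot be told apart in comparisons with them, and those p-values may measure the spread between cultures of 1 line. It stood at 0.909, 0.788, 0.656 and 0.306 CPM in flox/flox, 3.18, 2.90, 2.65 and 3.25 in CreER-only and 7.67, 8.60, 13.7 and 20.4 in flox/+ cultures, with no overlap between any pair. The fold change of flox/flox cultures was -4.26 ± 0.35 against flox/+ (adjusted p = 5.89e-07, edgeR), rank 62 of 14220 from the most lower, and -2.18 ± 0.37 against CreER only (adjusted p = 0.000295, edgeR). Cultures with 1 copy of Eif4g2 were higher than those with both copies by 2.08 ± 0.29 (adjusted p = 0.02, edgeR). In that last comparison 0.113% of all genes were called and 0.0492% were higher, and Ceacam10 had the rank 7 of 14220 from the most higher and was the 1 member called. This rise was not called without any 1 of the 4 libraries flox/+ replicate 3 and CreER-only replicates 1 to 3 (adjusted p up to 0.0892), nor with the 2 groups alone in the fit (2.09, adjusted p = 0.0543). Neither Paneth, stem nor enterocyte lists had a gene called between these 2 controls. Between flox/flox and flox/+ cultures several lists moved with Ceacam10. The summed Paneth markers ran from 1250.0 to 1629 CPM against 4771 to 5453, and the stem cell markers from 2236 to 3295 against 6309.8 to 8393. Enteroendocrine markers ran from 199 to 255 against 504 to 683, and tuft markers from 5.25 to 8.58 against 27.6 to 43.6. Each was without overlap, while goblet markers overlapped. Their part in its fall was not tested.

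Ceacam1 stood at 295, 358, 281 and 281 CPM in flox/flox, 289.6, 331, 322 and 373 in flox/+ and 287, 309, 325 and 324 in CreER-only cultures, all overlapping (-0.13 ± 0.09 against flox/+, adjusted p = 0.242, edgeR). Ceacam18 stood at 12.8, 18.5, 14.8 and 17.6, 25.8, 21.2, 18.4 and 13.3 and 17.8, 16.2, 25.8 and 21.5 CPM in the same order (-0.31 ± 0.21, adjusted p = 0.239, edgeR), also overlapping. Without flox/flox replicate 2 the small Ceacam1 difference was called (-0.22, adjusted p = 0.0367), as was that of Ceacam18 without flox/+ replicate 4 (-0.47, adjusted p = 0.0466). Of all genes, 46.8% were called against flox/+ and 45.3% against CreER only, with 2 of 4 members in each. The fall of Ceacam18 was called in the first set and not in the second, and the difference between sets, which had different controls, was not tested.

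Undeleted organoids differed widely in Ceacam10 from set to set. With DMSO, line S6070 (flox/flox) held 2.18 CPM in the first set on day 6 and 9.24 in the A-485 set on day 4. The DMSO libraries of the A-485 set ran from 5.84 in the +/+ line to 23.9, against 2.65 to 3.25 in the CreER-only cultures. Within the A-485 set, Y-linked transcripts were present in lines 3 and 4, which held more Ceacam10 with DMSO, and not in lines 1 and 2. All CreER-only cultures had Y-linked transcripts. The part of sex or line in these levels was not tested. These sets were grown for different times and are given side by side without a test.

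A-485 lowered all 4 members at 10 µM, each in 4 of 4 lines, where 62% of all genes were called and 32.6% were lower. Ceacam10 stood at 5.84, 9.24, 23.9 and 21.8 CPM with DMSO, 2.78, 4.23, 6.21 and 4.83 at 3 µM, 0, 0.821, 0.833 and 1.14 at 5 µM and 0, 0, 0.738 and 0 at 10 µM, in the order of lines 1 to 4. It was lower at each step in every line that still had reads. Its fold changes against DMSO were -1.73 ± 0.73 at 3 µM (adjusted p = 0.11, edgeR), -4.46 ± 0.86 at 5 µM (adjusted p = 0.000368, edgeR) and -6.13 ± 0.97 at 10 µM (adjusted p = 3.23e-05, edgeR). The last value rests on 13 reads in 1 of 4 libraries and depends on the value added to counts of 0. With the line as a block, the 3 µM change was called (-1.54, adjusted p = 0.0497).

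Ceacam20 and Ceacam18 fell in steps of unequal size. Ceacam20 stood at 13.4, 12.6, 14.7 and 11.5 CPM with DMSO, 3.84, 4.15, 7.26 and 4.30 at 3 µM, 3.03, 2.61, 6.73 and 3.67 at 5 µM and 0.251, 0.356, 0 and 0 at 10 µM, and Ceacam18 at 21.8, 49.3, 33.9 and 35.5, 9.54, 16.2, 19.8 and 12.8, 9.72, 12.4, 16.9 and 7.35 and 1.26, 2.32, 0.227 and 0.280. Both were below all DMSO values at each dose, overlapped between 3 and 5 µM, and dropped again at 10 µM without overlap. Against DMSO, Ceacam20 changed by -1.40 ± 0.42 (adjusted p = 0.0264), -1.68 ± 0.42 (adjusted p = 0.00311) and -6.25 ± 0.58 (adjusted p = 4.27e-08, edgeR) with rising dose. Ceacam18 changed by -1.25 ± 0.41 (adjusted p = 0.0408), -1.58 ± 0.41 (adjusted p = 0.00415) and -5.03 ± 0.51 (adjusted p = 1.66e-07, edgeR). At 3 µM both calls were kept with the line as a block (-1.43, adjusted p = 0.015 for Ceacam20 and -1.24, adjusted p = 0.0167 for Ceacam18, edgeR). Both were lost without the +/+ line (adjusted p = 0.161 for Ceacam20 and 0.122 for Ceacam18, edgeR). The Ceacam20 call was also lost without any 1 of the 4 DMSO libraries or 3 µM lines 1 and 2 (adjusted p up to 0.0778), and that of Ceacam18 without DMSO lines 2, 3 or 4 or 3 µM lines 1, 2 or 4 (adjusted p up to 0.131), while the fold changes stayed from -1.64 to -1.29 and from -1.43 to -1.04. From 5 to 10 µM, Ceacam20 changed by -4.57 ± 0.58 (adjusted p = 1.51e-05, edgeR) and Ceacam18 by -3.45 ± 0.49 (adjusted p = 7.12e-05, edgeR), while from 3 to 5 µM they differed by -0.28 ± 0.42 (adjusted p = 0.676) and -0.33 ± 0.41 (adjusted p = 0.603, edgeR).

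Ceacam1 kept its level longest. It stood at 294, 254, 227 and 239 CPM with DMSO, 271, 227, 207 and 226 at 3 µM, 169, 103, 116 and 122 at 5 µM and 82.8, 12.2, 11.9 and 11.1 at 10 µM. The +/+ line 1 remained at 82.8 CPM at the top dose, while the 3 flox/flox lines fell to 11.1 to 12.2. The fold changes were -0.11 ± 0.49 at 3 µM (adjusted p = 0.913), -0.97 ± 0.50 at 5 µM (adjusted p = 0.123) and -3.08 ± 0.54 at 10 µM (adjusted p = 0.000142, edgeR). At 5 µM all 4 lines were below all DMSO values, and the change was called with the line as a block (-1.01, adjusted p = 0.0499) and without the +/+ line (-1.06, adjusted p = 1.09e-05). Without that line the 10 µM change was -4.32. From 5 to 10 µM the change was -2.12 ± 0.52 (adjusted p = 0.00969, edgeR), and with those 2 doses alone in the fit -2.14 (adjusted p = 0.0812).

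**Figure D3:**
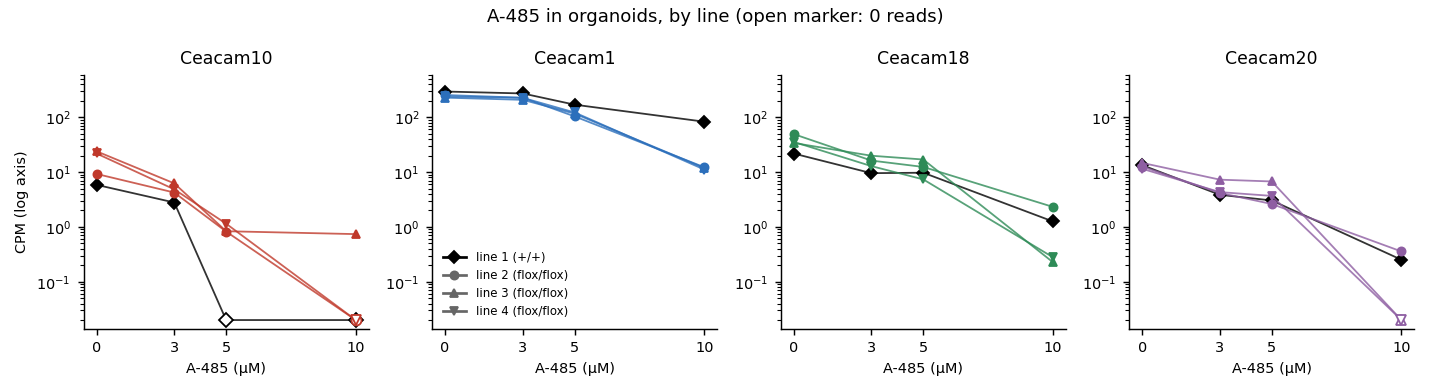
Level of each gene (CPM, log axis) against the A-485 dose (µM) in the 4 organoid lines, 1 line each, with the +/+ line in black and open markers for 0 reads. Ceacam18 and Ceacam20 stepped down by 3 µM and again from 5 to 10 µM, Ceacam1 fell mainly at 10 µM (82.8 CPM in line 1 and 11.1 to 12.2 in lines 2 to 4), and Ceacam10 had no reads in 3 of 4 lines at 10 µM.

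The steps also differed in the number of members called and in the markers beside them. Called members were 2 of 4 at 3 µM (19.2% of all genes called, 8.42% lower), 3 at 5 µM (49.6% and 25.1%) and 4 at 10 µM. Between doses they were 1 of 4 from 3 to 5 µM (24.5%), which was Ceacam10 (-2.73 ± 0.83, adjusted p = 0.0236, edgeR), and 3 of 4 from 5 to 10 µM (18.9%), all but Ceacam10 (-1.67 ± 1.03, adjusted p = 0.307, edgeR). The step of Ceacam10 from 3 to 5 µM was lost without 5 µM line 2 (adjusted p = 0.0516) or 3 µM line 3 (adjusted p = 0.0599, edgeR), and its step from 5 to 10 µM was -6.30 (adjusted p = 0.0209, edgeR) without line 3 at 10 µM, which leaves 0 reads there. The summed Paneth markers ran from 4003 to 5904 CPM with DMSO, 464 to 617 at 3 µM, 117 to 156 at 5 µM and 19.4 to 37.3 at 10 µM. In the same order the summed enterocyte markers ran from 5003 to 10123, 1999 to 4999, 1602 to 4259 and 122 to 463. Alpi, the enterocyte alkaline phosphatase, changed by 0.18 ± 0.37 at 5 µM (adjusted p = 0.72) and -4.08 ± 0.42 at 10 µM (adjusted p = 5.78e-07, edgeR), and Ptprh by 0.53 ± 0.21 (adjusted p = 0.0485) and -0.83 ± 0.22 (adjusted p = 0.00306, edgeR). Ptprh thus rose at 5 µM, where Ceacam20 had fallen. The microvillus list had 6 genes higher and 5 lower at 5 µM and 2 higher and 7 lower at 10 µM. The part of these markers in the members' levels was not tested.

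Spheroid lines of the same group spread widely. In flox/flox lines Ceacam10 stood at 0.162 (lowest), 0.763 (median) and 1.93 CPM (highest) with DMSO and at 0 (lowest), 0.129 (median) and 0.177 CPM (highest) with 4-OHT. It was lower with 4-OHT in 5 of 6 lines, higher in 1 (0.162 to 0.177 CPM, 3 and 4 reads), and 2 treated lines had no read. The fold change was -3.16 ± 0.96 (adjusted p = 0.0251, edgeR), and the call was lost without the DMSO library of line 1 (-2.83, adjusted p = 0.0591) or the 4-OHT library of line 2 (-2.93, adjusted p = 0.0527). Of all genes 19.1% were called, and Ceacam10 was the 1 member called. It passed the low-count filter with all 4 spheroid groups in the fit and not with the 2 flox/flox groups alone. The call thus exists only in a fit that includes the flox/+ lines. Their Ceacam10 means were higher, at 1.68 (DMSO) and 1.33 CPM (4-OHT) against 0.923 and 0.0985 in flox/flox lines. With the line as a block and all 4 groups in the fit, added after seeing the data, its change was -3.01 (adjusted p = 0.00438, edgeR). Ceacam20 stood at 0.914 (lowest), 14.1 (median) and 34.8 CPM (highest) with DMSO and at 0 (lowest), 0.696 (median) and 13.1 CPM (highest) with 4-OHT, lower in 6 of 6 lines, with -2.20 ± 1.44 (adjusted p = 0.319, edgeR). With the line as a block in these 2 groups it was called, with -3.24 (adjusted p = 0.0382), and with all 4 groups -3.16 (adjusted p = 0.01, edgeR). Ceacam18 stood at 10.9 (lowest), 19.9 (median) and 61.2 CPM (highest) and at 0.416 (lowest), 3.16 (median) and 26.4 CPM (highest), lower in 5 of 6 lines (-1.52 ± 0.80, adjusted p = 0.2, edgeR). Its change with the line block was called in the fit of all 4 groups (-2.45, adjusted p = 0.0305) and not in that of the 2 (-2.51, adjusted p = 0.0971, edgeR). Ceacam1 stood at 90.4 (lowest), 157 (median) and 245 CPM (highest) and at 45.5 (lowest), 97.6 (median) and 343 CPM (highest), lower in 4 of 6 (-0.12 ± 0.45, adjusted p = 0.896, edgeR). The 2 treatments overlapped for each of the 4 genes. In the same lines the summed enterocyte markers had a median of 3202 CPM with DMSO and 137 with 4-OHT (685 to 8563 and 6.94 to 6138), and goblet markers ran from 2814 to 16993 and 169 to 1582 without overlap. Their part in the lower levels of Ceacam10, Ceacam18 and Ceacam20 was not tested.

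In flox/+ lines 4-OHT called none of the 4, nor any gene at all (0% of those tested). Ceacam10 stood at 0.578, 0.145, 0.339, 3.26 and 4.07 CPM with DMSO and 0.307, 0.255, 0.730, 1.80 and 3.56 with 4-OHT (-0.35 ± 0.90, adjusted p = 1, edgeR), lower in 3 of 5 lines. Ceacam20 stood at 0.267, 0.484, 0.637, 16.8 and 11.8 and 0.307, 0.0426, 0.0456, 11.5 and 10.6 (-0.43 ± 1.51, adjusted p = 1, edgeR). Lines 4 and 5 held 10.6 to 16.8 CPM of Ceacam20 and the other 3 lines at most 0.637, with or without 4-OHT. Ceacam18 ran from 3.20 to 18.7 with DMSO and from 1.89 to 16.1 with 4-OHT, and Ceacam1 from 122 to 319 and from 117 to 371. The summed enterocyte markers ran from 63.5 to 5536 CPM with DMSO and from 30.2 to 3922 with 4-OHT in these lines, and their part in the members' spread was not tested.

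With 4-OHT, flox/flox lines held less Ceacam10 than flox/+ lines without overlap (-3.70 ± 0.99, adjusted p = 0.0202, edgeR; 10.5% of all genes called, 1 of 4 members). Without the 4-OHT library of flox/+ line 5 this was -2.91 (adjusted p = 0.0732), and with these 2 groups alone Ceacam10 did not pass the filter. With DMSO the genotypes differed by -0.89 ± 0.86 (adjusted p = 0.858, edgeR; 0% of all genes called, no member). The difference between the 4-OHT effects of the genotypes, tested directly as an interaction, was -2.81 ± 1.30 for Ceacam10 (adjusted p = 0.329, edgeR; 1.62% of all genes called, no member). With the line as a block it was -2.89 (adjusted p = 0.0515). For Ceacam20 it was -1.77 ± 2.06 (adjusted p = 0.8), for Ceacam18 -1.32 ± 1.16 (adjusted p = 0.7) and for Ceacam1 -0.19 ± 0.67 (adjusted p = 0.958, edgeR).

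**Figure D4:**
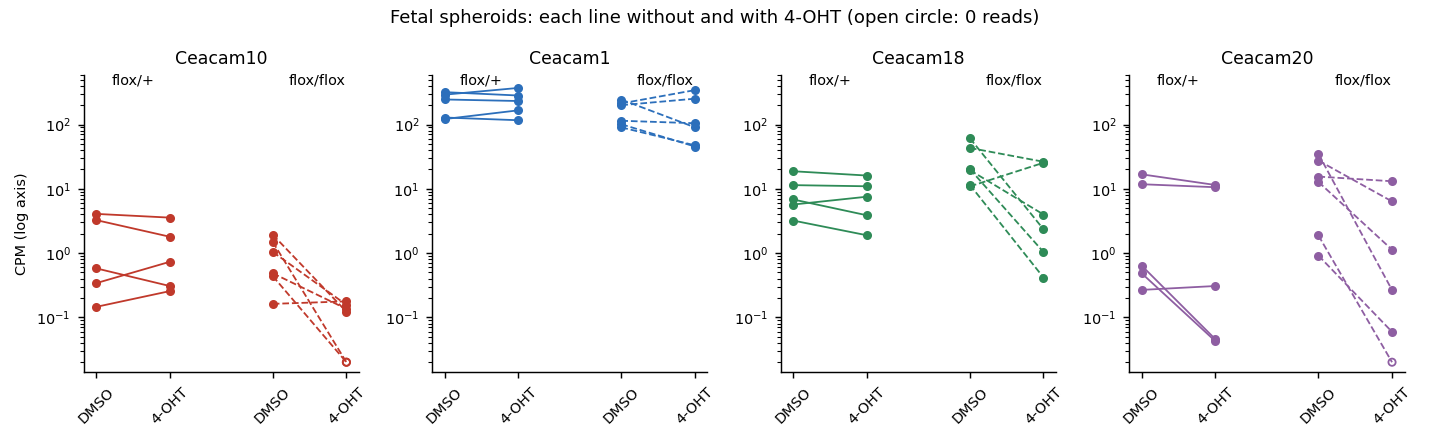
Level of each gene (CPM, log axis) in every spheroid line with DMSO and with 4-OHT, joined by a line, for 5 flox/+ (solid) and 6 flox/flox (dashed) lines, with open circles for 0 reads. Treated flox/flox lines held at most 0.177 CPM of Ceacam10, and Ceacam20 was lower with 4-OHT in 6 of 6 flox/flox lines, from DMSO levels of 0.914 to 34.8 CPM.

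Fetal spheroids and organoids of the second set were compared within genotype after 4-OHT, and culture type cannot be told apart from other differences between the 2 sets. In flox/+ cultures Ceacam10 was lower in spheroids, 0.307, 0.255, 0.730, 1.80 and 3.56 against 7.67, 8.60, 13.7 and 20.4 CPM without overlap (-3.18 ± 0.72, adjusted p = 0.00561, edgeR; 47.9% of all genes called, 1 of 4 members). The others differed by -0.46 ± 0.29 (Ceacam1, adjusted p = 0.216), -1.25 ± 0.52 (Ceacam18, adjusted p = 0.0719) and -1.31 ± 1.26 (Ceacam20, adjusted p = 0.424, edgeR), with overlap. Without the library of flox/+ spheroid line 4 the Ceacam18 difference was called (-1.67, adjusted p = 0.0217). In flox/flox cultures Ceacam10 did not pass the low-count filter, and none of the other 3 was called (24.6% of all genes). Ceacam1 differed there by -0.996 ± 0.535 (adjusted p = 0.204, edgeR), and by -1.42 (adjusted p = 0.0445) without spheroid line 3.

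Across the 21 group means of log2 CPM, genes of like pattern were sought among 15398 genes, as a description, since groups share mice, lines and tables. Ceacam20 was most like Lct (lactase; Pearson r = 0.972), Spink1 (0.971), Dpep1 (0.969), Erich4 (0.968) and Prss30 (0.968). Ceacam18 was most like Ces2e (0.968), Apoa4 (an apolipoprotein of enterocytes; 0.956), Slc30a10 (a manganese exporter; 0.955), Cgref1 (0.954) and Tmem236 (0.953). Ceacam1 was most like Nuak2 (0.950), Slc23a4 (0.945), Sco1 (0.940), Sult2b1 (0.940) and Tmem238l (0.938). Ceacam10 was most like Chrm1 (a muscarinic acetylcholine receptor, 0.923), Sdk2 (0.914), Lmcd1 (0.907), Esrrg (a nuclear receptor, 0.906) and Cacna1a (a calcium channel subunit, 0.906). The choice depended on the measure. Ordered by rank correlation (Spearman rho), the 5 genes of Ceacam1 stood at places 10, 1, 133, 125 and 69. Those of Ceacam18 stood at 2, 4, 31, 152 and 162, those of Ceacam20 at 10, 25, 2, 10 and 15, and those of Ceacam10 at 11, 7, 3, 4 and 22. Among the members r was 0.897 for Ceacam1 with Ceacam20, 0.878 for Ceacam18 with Ceacam20 and 0.796 for Ceacam1 with Ceacam18. Ceacam10 had lower Pearson values, at 0.455 with Ceacam20, 0.398 with Ceacam1 and 0.172 with Ceacam18. Spearman rho was 0.851 for Ceacam1 with Ceacam20, 0.717 for Ceacam18 with Ceacam20 and 0.556 for Ceacam1 with Ceacam18. For Ceacam10 it was 0.565 with Ceacam20, 0.452 with Ceacam1 and 0.212 with Ceacam18. By rank Ceacam10 thus did not stand apart from all pairs of the other members. The differences of libraries from their group means, over 92 libraries, gave 0.701 for Ceacam18 with Ceacam20, 0.507 for Ceacam1 with Ceacam20 and 0.164 to 0.409 for the other 4 pairs.

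Of the other Ceacam genes, 11 were in the tables, and 3 of them reached 10 reads in any library: Ceacam2 (at most 1614 reads), Ceacam16 (99) and Ceacam12 (52). Ceacam2, the near copy of Ceacam1, had the same direction as Ceacam1 between crypts and villi (-2.26 ± 0.30, adjusted p = 2.09e-05, and -1.98 ± 0.54, adjusted p = 0.00951, edgeR) and at 10 µM A-485 (-4.14 ± 0.98, adjusted p = 0.00128, edgeR), and shared reads cannot be told apart here. Of the 14 Psg genes, the pregnancy-specific glycoproteins of the same superfamily, 6 reached 10 reads, at most 221 (Psg25).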

How the data were processed

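Per the labels' protocols, messenger RNA was captured on poly-T beads after DNase treatment, and second strands were marked with dUTP. The deposited values are raw read counts of genes, in 4 tables with a column for each library, without normalization per the labels. The values were whole numbers, and all 92 columns were used. The submitters' processing notes name HISAT2 2.0.5 and GRCm38/mm10. The counting program, annotation and strand setting are not given in the sources used here. Coordinates were compared with GENCODE vM21: 54409 of 54532 identifiers occurred there, 98.8% with the same start. Libraries in a further medium (WENR) were not analysed here.

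The members, gene lists and motifs were chosen with earlier results of these data known. The 22 comparisons were run with edgeR 4.0.16 in R 4.3.3 on raw counts with filterByExpr, TMM and the robust quasi-likelihood test, and p-values were adjusted over all genes tested. The script was tested on simulated data. The text names the 4 members in every group, other list genes by counts, a few defining genes, and the 5 genes most like each member. Ceacam12 and other family genes were named after their values were seen. Libraries of the same mouse or line stood in 2 groups for crypts against villi, the first organoid set, A-485 and 4-OHT within spheroids. The deviations of such libraries correlated from -0.00247 to 0.296 between crypts and villi, 0.318 to 0.501 in the first organoid set, 0.0556 to 0.352 between A-485 doses and 0.385 to 0.857 in spheroids. The main fits held no term for mouse or line, so their SE and p-values leave this pairing out. A block on mouse or line was run as an alternative. No replicate number paired libraries otherwise. Alternatives were DESeq2 1.42.0 (size factors and the Wald test), no low-count filter, other groups in the fit, the block and each library left out. For Rosa26 homozygous against heterozygous tissue they also held a Y-linked term and a term for the series of animal numbers. The animal numbers of Rosa26 mice fell in separate series within each group. Added after seeing the data were the +/+ line left out and the spheroid line block with all 4 groups. No 2 libraries were copies, with a chi-square per degree of freedom of at least 6.26. Counting limits precision, and 3 reads were taken as the floor.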

Additional observations from a re-analysis of the deposited data

Results flagged for a closer look

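Of 72 sets of libraries from 1 gene and 1 group that were large enough, 5 held 1 library far from the rest by Dixon's gap ratio. For normally spread values chance would give about 1 in 20, and 5 of 72 is not far from that share. Ceacam1 stood at 82.8 CPM in line 1 (Eif4g2 +/+) at 10 µM A-485, against 11.1 to 12.2 in lines 2 to 4 (flox/flox). Genotype and line cannot be told apart there, since 1 line carried the +/+ genotype. Ceacam10 stood at 15.5 CPM in heterozygous Rosa26 villi replicate 3, against 6.06 to 7.61 in the other 4. Ceacam10 stood at 0.738 CPM in line 3 at 10 µM A-485, where the other 3 lines had 0 reads. With the others at 0 the gap ratio is 1 for any value above 0, so this flag carries no weight. Ceacam18 stood at 33.9 CPM in homozygous Rosa26 crypts replicate 1, against 9.51 to 11.5 in the others, and that library also held the most Ceacam1 (908 CPM) and Ceacam20 (51.9 CPM) of its group. Ceacam20 stood at 7.26 CPM in line 3 at 3 µM A-485, against 3.84 to 4.30 in the other lines.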

How the results depend on the processing

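Of 1156 alternative values for tested changes of single members, 1074 kept direction and side of the threshold, 40 lost and 18 gained a call, and 24 changed sign, each of them of a change that was not called. Of 140 for changes that are described only, 8 changed sign. A term for Y-linked transcripts gave 0.58 for Ceacam1 and 0.45 for Ceacam20 in Rosa26 crypts. Blocking on replicate numbers, which paired no libraries, gave -0.61 for Ceacam18 between 4-OHT spheroids, 0.079 for Ceacam10 between DMSO spheroids and -0.42 for Ceacam20 between flox/flox spheroids and organoids. The number block called Ceacam20 in Rosa26 villi (-0.36, adjusted p = 0.0463, edgeR) and in Vil1 villi (-0.38, adjusted p = 0.0435, edgeR), where 2 members were then called, and left Ceacam10 uncalled between flox/+ and CreER-only organoids (2.02, adjusted p = 0.0918, edgeR). In the fits run with a block on mouse or line, the calls that changed are those given with the results. The spheroid line block with all 4 groups called 3 members in flox/flox lines. Smaller moves in the number of members called, such as from 3 to 2, are left out of the list below. Among these were Rosa26 villi, where the Ceacam1 call was lost in 10 of 17 alternatives, and 5 to 10 µM A-485 with those doses alone. Moves of this number by more than 1.5 times, or to or from 0, were as follows. At 3 µM A-485 it was 1 without a low-count filter and 0 without the +/+ line. From 3 to 5 µM it was 0 with DESeq2 or without a filter and 2 with the compared doses alone or without the +/+ line. It was 0 with the compared groups alone or the number block for flox/+ against CreER-only organoids. In flox/flox spheroids and between 4-OHT spheroids, fits of the compared groups alone gave no count, since Ceacam10 did not pass the filter, and DESeq2 gave no adjusted p for Ceacam1 at 10 µM A-485. Between spheroids and organoids it was 2 (flox/+) and 1 (flox/flox) with DESeq2, and 1 (flox/flox) with all groups in the fit. With each library left out in turn it ran from 1 to 2 between flox/+ spheroids and organoids, from 0 to 2 at 3 µM A-485, and from 0 to 1 from 3 to 5 µM, for flox/+ against CreER-only organoids, in flox/flox spheroids, between 4-OHT spheroids and between flox/flox spheroids and organoids. Uncalled changes took either sign when single libraries were left out. In crypts Ceacam1 ran from -0.46 to 0.11 (Rosa26) and -0.068 to 0.25 (Vil1), and Ceacam18 from -0.18 to 0.68 and -0.19 to 0.61. Between flox/+ and CreER-only organoids Ceacam18 ran from -0.21 to 0.11 and Ceacam20 from -0.052 to 0.25. In flox/+ spheroids Ceacam1 ran from -0.16 to 0.24, Ceacam10 from -1.14 to 0.28, Ceacam18 from -0.61 to 0.24 and Ceacam20 from -1.12 to 0.42. In flox/flox spheroids Ceacam1 ran from -0.54 to 0.069, and in the interaction from -0.61 to 0.040. Between 4-OHT spheroids Ceacam18 ran from -0.29 to 0.69 and Ceacam20 from -1.56 to 0.29. Of 168 levels on another scale, 19 moved by more than 1 SD. Low counts limit Ceacam10 in deleted villi, organoids and spheroids.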

Other observations

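Ceacam12, another family gene (ENSMUSG00000030366, GRCm38 chr7:18065929-18077986, plus strand), was singled out after its values were seen. It was a low gene with its highest group mean in fetal spheroids (1.09 CPM in flox/+ lines with 4-OHT). It had 0 reads in all 17 Vil1 tissue libraries and at most 0.522 CPM in any library of the organoid sets. In Rosa26 tissue it had some reads in heterozygous crypts and villi and 0 in homozygous ones. In flox/flox spheroids with DMSO it had 2, 13, 5, 28, 5 and 23 reads in lines 1 to 6, and with 4-OHT 0 reads in 5 lines and 2 reads in line 6. In flox/+ spheroids it had 15 to 38 reads with DMSO and 15 to 52 with 4-OHT. The flox/flox read counts with 4-OHT did not overlap those of any other spheroid group except for a tie of 2 reads with 1 DMSO library.

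The fold change of 4-OHT over DMSO was -4.71 ± 0.87 in flox/flox spheroids for Ceacam12 and 0.03 ± 0.69 in flox/+ spheroids (log2 ± SE). With 4-OHT, flox/flox differed from flox/+ lines by -5.67 ± 0.89, and with DMSO by -0.93 ± 0.66. Since these libraries led to the choice of Ceacam12, the values are a description, with no test. These fold changes depend on the value added to counts of 0 and are no bound.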
